A study of Mus musculus with 8 samples.

Results

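The transcriptome of 1 mouse heart section taken 4 weeks after transverse aortic constriction (TAC-4w) was compared with that of 1 sham section. These are 2 of the 4 heart sections and of the 8 samples of the series. UMIs, the molecular tags that count single captured transcripts, were summed over all spots of a section, and the level of a gene was its sum per 1000000 UMIs (CPM). Left out of this total were the genes of the mitochondrial genome and 3 features that carry ribosomal RNA sequence, AY036118, Gm26917 and Gm42418. Of the 32285 genes listed, the 9776 with at least 100 UMIs in either section were compared, and the best covered gene left out had 99. All mice were wild-type C57BL/6J males, 8 weeks old at surgery. For sham the time from operation to collection, and so the age at collection, is not given in the sources used here. Which animal a section came from, and how many animals stand behind the 4 sections, is not stated in the sources used here. In TAC a suture around the aortic arch narrows the vessel, so that the left ventricle pumps against a raised pressure, and sham mice had the operation without the ligature. Hearts were embedded in OCT, cut and measured on Visium slides, whose barcoded spots each cover several cells. By the labels sham was in batch 1 together with TAC-2w, TAC-4w in batch 2 and TAC-6w in batch 3. TAC-4w was therefore the only section of its batch, and condition and batch cannot be told apart in any ratio of TAC-4w to sham. With 1 section for each condition there was no replicate and no test between conditions, so ratios stand with exact 95% intervals that cover counting error only.

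The adult mouse ventricle runs on alpha-myosin heavy chain, the fast motor encoded by Myh6, while beta-myosin heavy chain, the slow motor encoded by Myh7, is the main form before birth. Under pressure overload, ventricular muscle is known to take up parts of the fetal programme again, with beta-myosin, skeletal alpha-actin and the natriuretic peptides among its best known members. Overload is also known to draw leukocytes into the wall and to change matrix production and fuel use.

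The sham section had 1676 spots and the TAC-4w section 1228, of which 1 lay apart from all others and held 1385 UMIs. Their sums were 25996378 and 31942372 UMIs, with medians of 15488.5 and 27593 UMIs per spot. Without the features named above 12531634 and 18399465 UMIs remained. Mitochondrially encoded genes took 51.5% of all UMIs in sham and 42.2% in TAC-4w. Kept in the total, they raised every log2 ratio of TAC-4w to sham by 0.26, so that genes and medians lower than in sham by less than that turned to above it. Both sections were heart by their markers, with 6 cardiomyocyte markers summing to 68072 CPM in sham and 45765 CPM in TAC-4w. The summed markers of skeletal muscle, lung epithelium and thymocytes lay at or under 4.67 CPM in both.

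In the TAC-4w section 252 genes were at least 2-fold higher than in sham, 2.58% of the genes compared, and 101 genes were at least 2-fold lower, which is 1.03%. The median log2 ratio over all genes was -0.04. With mitochondrial genes in the total this median was 0.22 and the counts were 428 and 52, so that the share of higher genes among those past 2-fold went from 71.4% to 89.2%. A ratio of at least 4 was found for 59 genes and of at least 10 for 11 genes, while 12 genes were at least 4-fold lower. Among spots of 20000 to 30000 UMIs, 371 in TAC-4w and 488 in sham, 215 of the 252 and 76 of the 101 genes stayed past 2-fold, and all kept their direction. Each section was also cut into 8 angular sectors of equal numbers of spots. In 158 of the 252 genes the lowest TAC-4w sector lay above the highest sham sector, and in 62 of the 101 genes the reverse held. Over all genes compared such a gap was found upwards for 6.04% and downwards for 4.97%. Sectors and spots share a section and are no replicates. For scale, TAC-2w against the same sham section gave 0.156% of genes at least 2-fold higher and 0.792% at least 2-fold lower, and TAC-6w against it 1.92% and 0.259%.

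**Figure D1:**
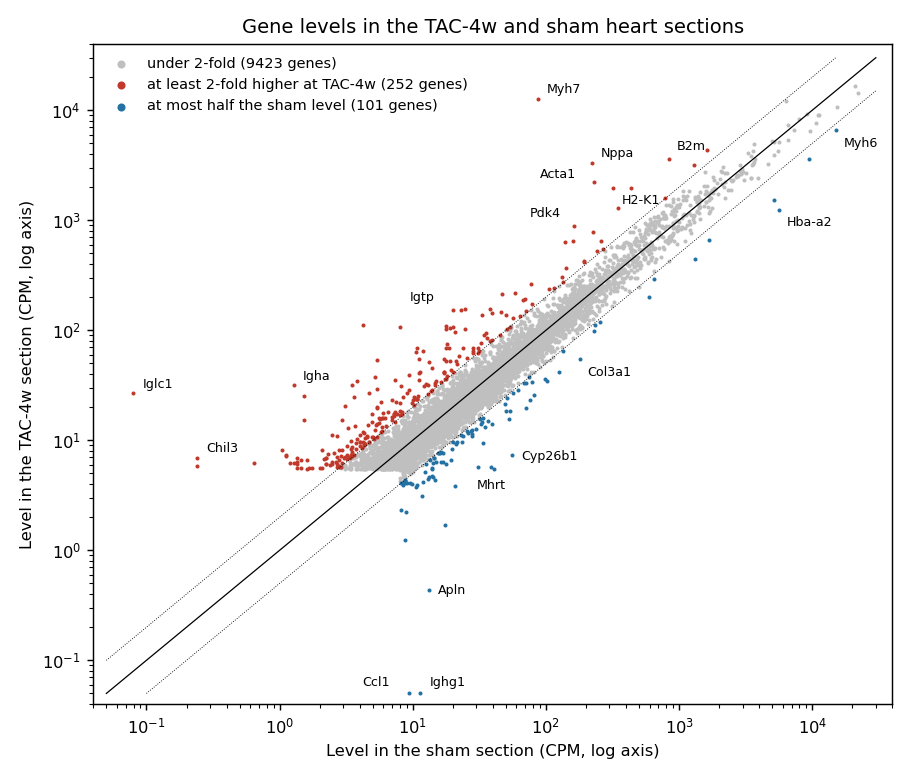
Level of each of the 9776 genes in the sham section (x axis, CPM, log scale) and the TAC-4w section (y axis, CPM, log scale). Each point is a gene, the solid line marks equal levels and the dotted lines 2-fold; levels under 0.05 CPM are drawn at 0.05. Myh7 stands far above the line at 86.9 and 12686 CPM, and Ccl1 and Ighg1 lie on the lower edge because TAC-4w had no UMI of either.

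Genes are named by rank, 15 at each end of the ratio, and by place in gene lists, and levels stand in the order sham, 2, 4 and 6 weeks after TAC. Ankrd1, Irgm1, H2-D1, Psmb8, Tap1, Serpina3n, Pdk4, Acot2, Ucp3, Thbs1, Ccn5, Cilp, Thbs4, Egln3, Angpt1, Wt1, Alas2, Myl4 and Myl7 lie outside that rule and were chosen after their values were seen. For a list, the count of members past 2-fold and the median are to be read against the 2.58%, the 1.03% and the median of -0.04 over all genes.

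Among the transcripts of Myh6 and Myh7, those of Myh7 were in the majority in the TAC-4w section. In the other 3 sections almost all were of Myh6. The myosin proteins were not measured in these sections. Myh7 was at 86.9, 41.5, 12686 and 175 CPM in the 4 sections. TAC-4w stood far above the other 3, and its ratio to sham was 146 (138 to 155). Its 8 sectors ran from 11081 to 14960.1 CPM against 50.7 to 131 CPM in sham, and the ratio among spots of 20000 to 30000 UMIs was 139.6. Myh6 was at 15191, 14276, 6545 and 12763 CPM, a level in TAC-4w that was 2.32-fold lower than in sham (2.30 to 2.34). With mitochondrial genes in the total, Myh6 remained lower but not past 2-fold.

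Of the UMIs of both genes together, Myh7 held 0.569% in sham (exact binomial 95% interval 0.536 to 0.604) and 0.290% in TAC-2w (0.273 to 0.307). In TAC-4w the share was 66.0% (65.8 to 66.1), and in TAC-6w 1.35% (1.31 to 1.39). This share does not depend on the total used for scaling. It varied little over the TAC-4w section, from 63.3% to 69.1% over the 8 sectors. Among its 1197 spots with at least 50 UMIs of the pair, the lowest share was 44.3%, the median 66.1% and the highest 85.4%. No sham spot of that depth was above 15.7%, so the spots of the 2 sections did not overlap. The sum of both genes was 15278 CPM in sham and 19232 CPM in TAC-4w. Myh6 and Myh7 are near-identical neighbours, and how the counting treated reads that match both is not given in the sources used here.

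The 2 genes lie beside each other on mouse chromosome 14, in coordinates of GRCm38.p6 (mm10, the build the files name) Myh6 at chr14:54941921-54968017 and Myh7 at chr14:54970684-54994626. Mhrt, a long non-coding RNA named for its association with the myosin heavy chains (chr14:54968787-54974349), overlaps Myh7, as does the long non-coding RNA Gm31251 (chr14:54975264-55005006). Both ranked among the 15 lowest genes. Mhrt was at 38.9, 38.8, 5.71 and 30.0 CPM, 6.82-fold lower in TAC-4w than in sham (5.52 to 8.51). Gm31251 was at 40.9, 33.9, 5.43 and 29.0 CPM, 7.53-fold lower (6.07 to 9.43). For both, all TAC-4w sectors lay under all sham sectors. Because these genes overlap Myh7 and the strand setting of the counting is not given in the sources used here, reads of the overlapping parts may not be assigned with certainty. The 250 bases before the Myh7 start are printed because they belong to the gene with the most UMIs among the 15 highest. The sequence, like all sequences here, is from RefSeq for GRCm38.p6, runs 5′ to 3′ on the strand of the gene and covers chr14:54994627-54994876 on the minus strand. The table lists 2 starts for Myh7, and the upstream one, at the end of the annotated gene, was taken. Capitals mark the reverse complement of the MCAT motif CATTCC, known as the site of TEAD factors.
Myh7 promoter: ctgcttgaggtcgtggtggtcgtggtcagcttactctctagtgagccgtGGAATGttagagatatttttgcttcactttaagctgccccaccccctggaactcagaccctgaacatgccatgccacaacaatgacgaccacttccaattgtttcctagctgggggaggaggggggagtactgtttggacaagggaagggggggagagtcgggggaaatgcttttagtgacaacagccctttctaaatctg

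Cardiomyocyte stress genes, a list of 20 with 19 members compared, had 5 members at least 2-fold higher in TAC-4w and none at least 2-fold lower, with a median log2 ratio of 0.58. The 5 were Myh7, Nppa, Acta1, Nppb and Ankrd1, and all 5 stayed past 2-fold in spots of like depth. Nppa, the precursor of atrial natriuretic peptide, a hormone that lowers blood volume and pressure, was at 220.2, 241, 3333 and 1044 CPM. TAC-4w was highest and TAC-6w stood between it and the other 2 sections. The ratio to sham was 15.1 (14.6 to 15.7), and 9.69 in spots of like depth. Nppb, the precursor of brain natriuretic peptide and the neighbour of Nppa on chromosome 4, was at 139.6, 66.8, 638 and 308 CPM, with a ratio of 4.57 (4.34 to 4.80). Its 8 TAC-4w sectors ran from 509.7 to 838 CPM and its sham sectors from 65.2 to 204 CPM, without overlap. Acta1, skeletal alpha-actin, was at 228, 353, 2232 and 6065 CPM, and TAC-6w, not TAC-4w, had its highest level. Its ratio of TAC-4w to sham was 9.79 (9.43 to 10.2). Ankrd1, a stretch-responsive protein of the sarcomere and the nucleus, was at 433, 238, 1944 and 1957 CPM, about equal in TAC-4w and TAC-6w, with a ratio of 4.49 (4.36 to 4.62).

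The rest of the list differed less. Des, the intermediate filament desmin, was at 1559, 1389, 2750.0 and 1775 CPM and its ratio was 1.76 (1.74 to 1.79). Cryab, the small chaperone alpha-B-crystallin, was at 3626, 3795, 4904 and 4632 CPM with a ratio of 1.35 (1.34 to 1.37). In both genes all TAC-4w sectors lay above all sham sectors although neither passed 2-fold.

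Nppa was the most uneven of these genes within the section. Its TAC-4w sectors ran from 777 to 7228 CPM, with 2 neighbouring sectors at 7228 and 6295 CPM, while those of sham ran from 37.3 to 516 CPM. Only 3.10% of its TAC-4w UMIs (2.96 to 3.24) lay in the 126 edge spots of the section, which held 11.2% of all counted UMIs. In sham the 150 edge spots held 2.72% of its UMIs (2.14 to 3.39) and 13.4% of all. Myh7 was spread evenly by this measure, with 11.8% of its TAC-4w UMIs in edge spots. Of 10 atrial genes listed 6 were compared, 3 were at least 2-fold higher and none at least 2-fold lower. Their median log2 ratio was 0.78. The 3 were Nppa, Clu and Dkk3, the last with 30 UMIs in sham and 109 in TAC-4w. Dkk3 was highest in the same 2 TAC-4w sectors as Nppa, at 11.5 and 13.1 CPM. The myosin light chains of the atrium, Myl4 and Myl7, had too few UMIs to be compared. They were at 2.47 and 1.52 CPM and at 0.718 and 2.77 CPM in sham and TAC-4w.

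**Figure D2:**
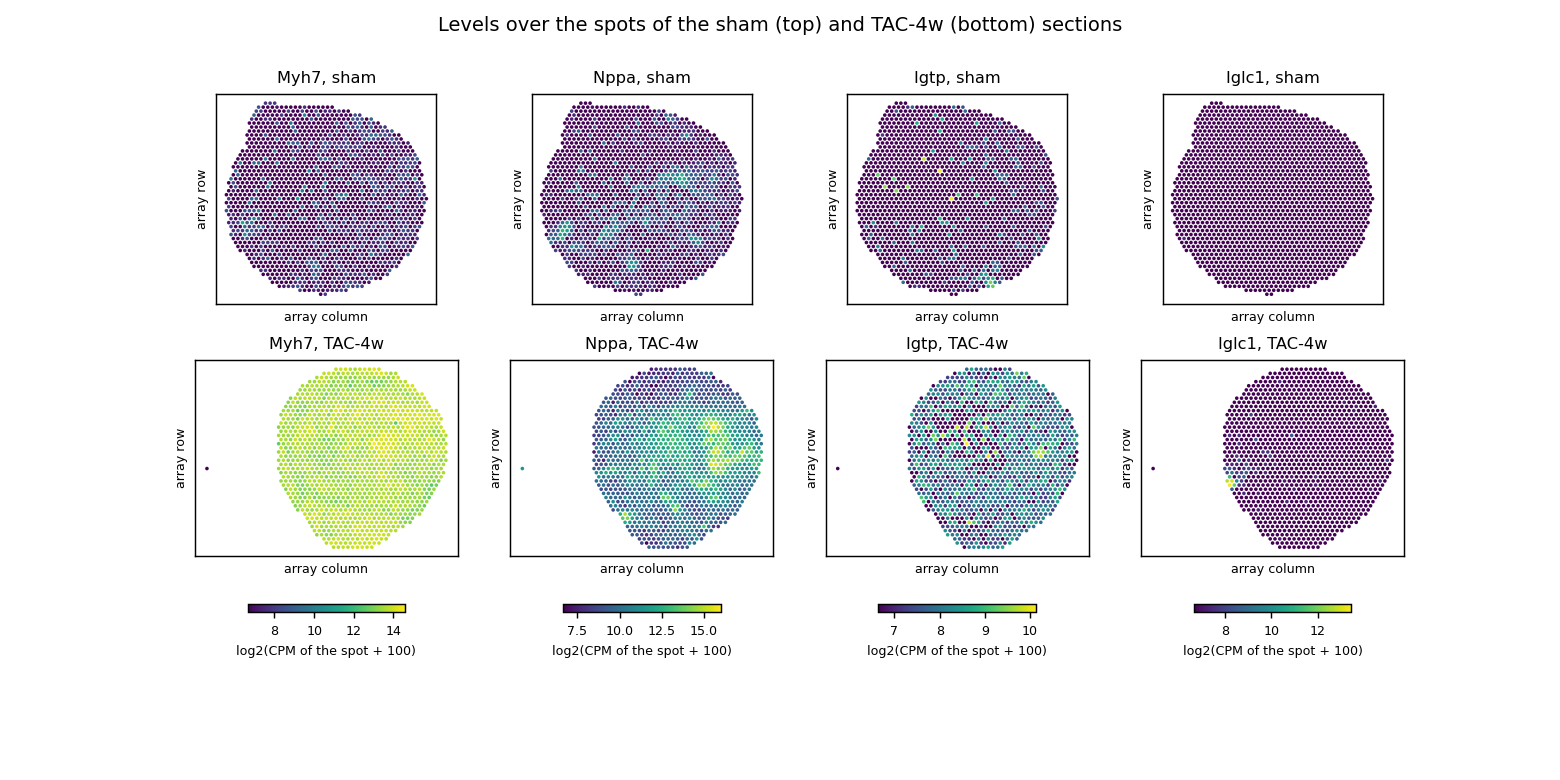
Level of Myh7, Nppa, Igtp and Iglc1 in each spot of the sham (top) and TAC-4w (bottom) sections, drawn at the array position of the spot and coloured by log2(CPM of the spot + 100), with 1 colour scale for each gene. Myh7 fills the TAC-4w section, Nppa is strongest inside and weak at the rim, Igtp is spread over the section, and Iglc1 is in a few spots.

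The promoters of Acta1 and Nppa are printed because both genes ranked among the 15 highest and are textbook targets of load. Capitals mark the MCAT motif CATTCC, the box known as CArG, which is the site of serum response factor, and the promoter box TATAAA. In Acta1 the CArG box lay 73 to 64 bases and the MCAT motif 46 to 41 bases before the start. TATAAA lay 7 to 2 bases before it in Acta1 and 9 to 4 bases before it in Nppa. All distances are from the annotated start, and where transcription begins was not measured here. The windows are chr8:123894776-123895025 on the minus strand for Acta1 and chr4:148000472-148000721 on the plus strand for Nppa.
Acta1 promoter: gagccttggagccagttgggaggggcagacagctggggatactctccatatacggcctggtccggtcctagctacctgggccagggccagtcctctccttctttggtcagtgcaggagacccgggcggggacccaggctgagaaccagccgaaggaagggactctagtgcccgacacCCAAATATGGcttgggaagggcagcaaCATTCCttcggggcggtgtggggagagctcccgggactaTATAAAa
Nppa promoter: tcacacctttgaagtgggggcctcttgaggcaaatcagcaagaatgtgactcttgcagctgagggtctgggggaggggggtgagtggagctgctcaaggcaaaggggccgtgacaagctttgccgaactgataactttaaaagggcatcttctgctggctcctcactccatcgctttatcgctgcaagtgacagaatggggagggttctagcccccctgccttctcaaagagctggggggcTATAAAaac

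Genes known to be induced by interferon were higher across the list in TAC-4w. All 22 members were compared, 17 were at least 2-fold higher and none was lower than in sham, with a median log2 ratio of 1.72 and of 1.67 in spots of like depth. The same 22 genes had a median of -0.25 in TAC-2w and of 0.85 in TAC-6w against the shared sham section. Over all genes compared at those times the medians were -0.17 and 0.10, so the TAC-2w value was near that of all genes. Igtp, a GTPase that acts on the vacuoles of intracellular microbes, was at 20.2, 13.9, 151 and 33.9 CPM. The TAC-4w level was above each of the other 3, 7.50 times that of sham (6.59 to 8.56), and its lowest sector, at 131 CPM, was above the highest sham sector, at 43.9 CPM. Its relative Irgm1 was at 20.0, 16.2, 107 and 38.6 CPM, with a ratio of 5.35 (4.69 to 6.13). Irf7, the factor that amplifies the type I interferon response, was at 12.0, 12.5, 65.0 and 28.7 CPM, with a ratio of 5.43 (4.58 to 6.48).

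Guanylate-binding proteins, a further family of interferon-induced GTPases, moved with them. Gbp6 was at 59.0, 35.1, 219 and 98.9 CPM and its ratio was 3.71 (3.43 to 4.02). Gbp10, among the 15 highest genes, was at 1.52, 0.328, 25.1 and 3.20 CPM, with 19 UMIs in sham and 462 in TAC-4w. Guanylate-binding proteins are close copies of each other, so reads may be split between them. F830016B08Rik, the fourth highest gene by ratio, was at 4.23, 2.08, 112 and 6.07 CPM with a ratio of 26.4 (20.1 to 35.4), and Gm47283, also among the 15 highest, was at 8.06, 6.99, 108 and 32.0 CPM with a ratio of 13.4 (11.0 to 16.5). What these 2 encode is not stated by the files. Zbp1, a sensor of Z-form nucleic acid, was at 1.52 CPM in sham and 15.4 CPM in TAC-4w, with a ratio of 10.2 (6.40 to 17.2). Ifi27l2a had the highest level of the list in TAC-4w, 116, 136, 225 and 225 CPM in the 4 sections, and was just inside 2-fold with a ratio of 1.95 (1.84 to 2.07).

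Transcripts of genes for antigen presentation by MHC class I were higher as a whole, while presentation itself was not measured. Of 9 members compared 8 were at least 2-fold higher and none lower, the median log2 ratio was 2.04, and the TAC-4w sectors lay above the sham sectors in all 9. B2m, the light chain shared by all class I molecules, was at 841, 649, 3579 and 2109.6 CPM. It was highest in TAC-4w, lowest in TAC-2w and had a ratio of 4.26 (4.17 to 4.34) to sham. H2-K1, a classical heavy chain, was at 319.8, 217, 1960.3 and 822 CPM, with a ratio of 6.13 (5.93 to 6.34). The second heavy chain, H2-D1, was at 348, 262, 1296 and 726 CPM, with a ratio of 3.72 (3.60 to 3.84). Class I heavy chains are near-copies of each other, and reads may be split between them. Psmb8, a subunit of the immunoproteasome that cuts peptides for class I, was at 33.4, 23.2, 138 and 61.9 CPM. Tap1, a subunit of the peptide transporter, was at 18.0, 9.79, 74.4 and 31.0 CPM. Both were about 4-fold higher than in sham, with ratios of 4.14 (3.73 to 4.60) and 4.13 (3.58 to 4.77).

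MHC class II, which presents antigen on macrophages, dendritic cells and B cells, differed less. Of 7 members compared 5 were at least 2-fold higher, and the median log2 ratio was 1.03. Cd74, the invariant chain, was at 259.5, 193, 652 and 521 CPM, with a ratio of 2.51 (2.42 to 2.61). H2-Aa, an alpha chain, was at 132, 94.4, 304 and 254 CPM, with a ratio of 2.30 (2.17 to 2.43). Both were higher in TAC-4w and TAC-6w than in sham and TAC-2w. The 6 macrophage markers summed to 424 CPM in sham and 699 CPM in TAC-4w, all 6 higher and none past 2-fold. In a section, more cells of a type and more RNA of a gene per cell cannot be told apart.

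The promoters of Igtp, Irgm1 and B2m are printed for the sites they hold before the start. Capitals mark the interferon-stimulated response element (ISRE, here GAAA, any 2 bases and GAAA), the site of IRF and ISGF3 complexes, and the gamma-activated site (GAS, here TTC, any 3 bases and GAA), the site of STAT dimers. Igtp had an ISRE 34 to 25 bases and a GAS 45 to 37 bases before the start. Irgm1 had 2 ISRE matches that overlap each other, and B2m had 1 at 139 to 130 bases before the start. The windows are chr11:58199306-58199555 on the plus strand for Igtp, chr11:48871421-48871670 on the minus strand for Irgm1 and chr2:122147437-122147686 on the plus strand for B2m.
Igtp promoter: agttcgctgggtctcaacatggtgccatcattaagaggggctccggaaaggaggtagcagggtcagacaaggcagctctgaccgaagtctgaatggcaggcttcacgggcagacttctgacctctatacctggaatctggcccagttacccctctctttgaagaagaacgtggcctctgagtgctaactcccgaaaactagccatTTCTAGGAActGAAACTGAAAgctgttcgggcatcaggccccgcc
Irgm1 promoter: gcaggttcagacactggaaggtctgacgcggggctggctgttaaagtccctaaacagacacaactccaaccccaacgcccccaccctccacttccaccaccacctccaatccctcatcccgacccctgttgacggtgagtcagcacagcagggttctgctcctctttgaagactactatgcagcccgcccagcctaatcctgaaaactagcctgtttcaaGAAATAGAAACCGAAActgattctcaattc
B2m promoter: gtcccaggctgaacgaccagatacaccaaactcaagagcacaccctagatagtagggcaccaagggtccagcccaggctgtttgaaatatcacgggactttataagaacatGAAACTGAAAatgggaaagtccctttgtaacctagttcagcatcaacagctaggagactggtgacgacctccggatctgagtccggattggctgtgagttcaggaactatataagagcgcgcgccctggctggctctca

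These letters were searched on both strands of the 250 bases before each start. Of the 353 genes past 2-fold 258 were matched to a promoter by symbol. The ISRE was found in 2.98% of all 32851 promoters and in 3.15% of the matched genes compared. Among the matched genes at least 2-fold higher 27 of 183 held it, 14.8%, and among those at least 2-fold lower 0 of 75. Of the interferon list 12 of 16 matched genes held it. The GAS was found in 7.02% of all promoters, in 6.96% of the matched genes compared and in 6 of the 16. CATTCC was found in 12.6% of all promoters, in 13% of the matched genes compared and in 6 of 16 stress genes. Of the matched genes at least 2-fold higher 15.3% held it, and of those at least 2-fold lower 20%. A match is a run of letters and not a site that was measured, and the absence of a match says only that the letters are not in this window.

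Several leukocyte genes were among the 15 highest, most of them from low counts. Iglc1, the constant part of an antibody lambda light chain, had 1 UMI in sham, 3 in TAC-2w, 491 in TAC-4w and 4 in TAC-6w. The ratio was 334, with an interval from 59.7 to 13235, and it was 95.3 in spots of 20000 to 30000 UMIs. For the ranking the sham count was set to 3, which put Iglc1 behind Myh7. Of the TAC-4w UMIs 86.6% came from 10 spots, and 1 sector was at 227 CPM while the next highest was at 5.22 CPM. Igha, the heavy chain of IgA, had 16 UMIs in sham and 582 in TAC-4w, a ratio of 24.8 (15.1 to 43.6), with 78.0% of the TAC-4w UMIs in 10 spots. Of the 10 spots highest in either gene 6 were shared. Most of the TAC-4w UMIs of both genes thus lay in few spots. IgG1 went the other way. Ighg1, its heavy chain, had 143 UMIs in sham and none in TAC-4w, at least 70.0-fold lower when 3 counts are taken as the floor. It was also without a UMI in TAC-2w and TAC-6w, so that its UMIs were found in sham alone, 59.4% of them in 10 spots. Igkc, the kappa light chain, was at 16.2, 9.47, 7.83 and 13.0 CPM and was 2.07-fold lower, and was not past 2-fold under 6 of the 8 other settings. In sham 1 sector of Igkc was at 65.0 CPM and the next highest at 13.5 CPM. Of its 10 highest sham spots 6 were shared with Ighg1.

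Genes of myeloid cells were also among those higher. Chil3, a chitinase-like protein of monocytes and macrophages, had 3 UMIs in sham and 128 in TAC-4w, a ratio of 29.1 (9.72 to 143). Fcgr4, a receptor for IgG, was at 3.51, 1.57, 32.1 and 8.35 CPM, and its ratio was 9.15 (6.73 to 12.7). Every TAC-4w sector of Fcgr4 was above every sham sector. Ly6c2, a surface marker of inflammatory monocytes, was at 1.04, 0.728, 8.21 and 11.3 CPM, higher in TAC-4w and in TAC-6w, with a ratio of 7.91 (4.49 to 15.2). The 2 subunits of calprotectin, an abundant protein of neutrophils, had another pattern. S100a8 was at 23.9, 4.11, 69.3 and 11.6 CPM and S100a9 at 28.6, 4.91, 62.3 and 12.6 CPM. TAC-4w was highest, sham was next, and TAC-2w and TAC-6w were lower than sham. The ratios of TAC-4w to sham were 2.90 (2.55 to 3.30) and 2.18 (1.94 to 2.46), and that of S100a9 was 1.49 in spots of like depth.

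Lymphocyte genes were few. Trbc2, the constant part of the T cell receptor beta chain, was at 1.28, 0.801, 6.20 and 7.83 CPM, and Nkg7, a granule protein of NK and cytotoxic T cells, at 1.60, 0.837, 6.63 and 9.32 CPM. Each had at most 122 UMIs in TAC-4w, and both were higher in TAC-6w than in TAC-4w. The ratios to sham were 4.85 (2.86 to 8.78) and 4.15 (2.58 to 7.04). The 2 B cell markers compared, Igkc and Ighm, were both lower than in sham, and Ighm, the IgM heavy chain, at 13.4, 10.1, 11.5 and 17.0 CPM, turned to slightly above sham with mitochondrial genes in the total.

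Chemokines split. Of 14 compared 4 were at least 2-fold higher and 1 at least 2-fold lower, with a median log2 ratio of 0.43. Ccl5, which attracts T cells and monocytes, was at 5.19, 5.06, 37.7 and 40.9 CPM, with a ratio of 7.26 (5.63 to 9.51) and a like level in TAC-6w. Cxcl13, which attracts B cells, had 8 UMIs in sham and 115 in TAC-4w, a ratio of 9.79 (4.81 to 23.2). Ccl21a, made by lymphatic endothelium, was at 70.4, 20.6, 19.8 and 47.1 CPM, 3.55-fold lower than in sham (3.14 to 4.02) with overlapping sectors. Ccl1, which is not on the list, had 118 UMIs in sham and none in TAC-4w, at least 57.8-fold lower at a floor of 3 counts. It came from 1 place, with 86.4% of its sham UMIs in 10 spots. Retnla, a secreted protein of alternatively activated macrophages, was at 30.7, 27.5, 5.71 and 9.65 CPM, 5.38-fold lower than in sham (4.33 to 6.75).

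**Figure D3:**
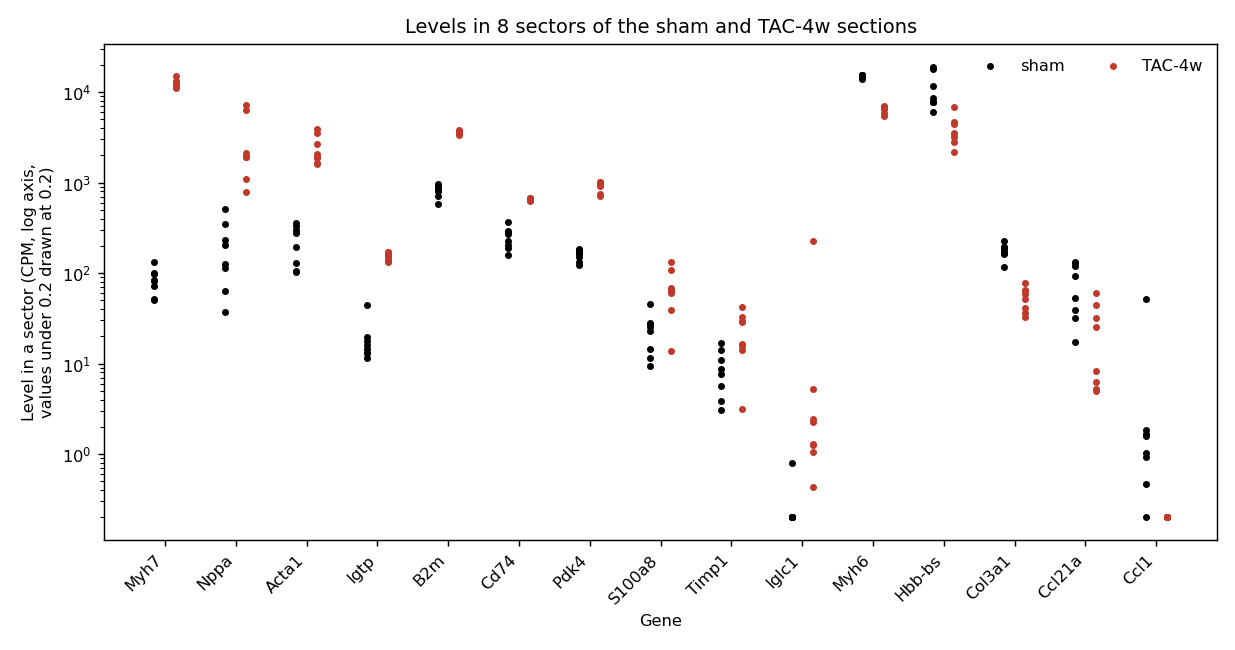
Level of 15 genes in the 8 angular sectors of the sham (black) and TAC-4w (red) sections on a log axis in CPM, with values under 0.2 CPM drawn at 0.2. Each point is a sector; sectors of a section are no replicates. Myh7, Igtp, B2m and Pdk4 are separated by a wide gap, while Iglc1 in TAC-4w and Ccl1 in sham have 1 high sector.

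Acute-phase genes and metallothioneins were 5 of 7 at least 2-fold higher, with a median log2 ratio of 1.78. Lcn2, a protein that binds bacterial iron carriers, was at 20.9, 7.03, 97.1 and 12.0 CPM. TAC-4w was highest by far and TAC-2w lowest, and the ratio to sham was 4.65 (4.08 to 5.31). Serpina3n, a protease inhibitor of the acute phase, was at 39.2, 9.72, 144 and 17.7 CPM with a ratio of 3.68 (3.34 to 4.06). Its levels in TAC-2w and TAC-6w were below that of sham. Its sectors overlapped narrowly, with the lowest TAC-4w sector at 84.8 CPM and the highest sham sector at 85.3 CPM. Mt1 and Mt2, the metallothioneins, which bind zinc and copper, were at 1619.7, 2034, 4343 and 1813 CPM and at 227, 209, 778 and 375 CPM. Their ratios were 2.68 (2.64 to 2.72) and 3.42 (3.29 to 3.57), and no TAC-4w sector of either reached down to the sham sectors. Of 16 complement genes compared 4 were at least 2-fold higher, and the median log2 ratio was 0.56. C4b, the fourth component, was at 45.8, 13.9, 145 and 34.9 CPM with a ratio of 3.17 (2.90 to 3.48). Masp1, a protease of the lectin pathway, was at 5.75, 6.04, 22.2 and 8.83 CPM with a ratio of 3.86 (3.00 to 5.03). Clu, clusterin, was at 778, 639, 1593 and 857 CPM, with a ratio of 2.05 (2.00 to 2.09) that was 1.86 in spots of like depth.

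Among 17 immediate early genes 2 were at least 2-fold higher, and the median log2 ratio was 0.11. Atf3, a stress-induced transcription factor, was at 3.83, 4.84, 34.3 and 4.55 CPM, 8.97 times the sham level in TAC-4w (6.68 to 12.3). Nr4a1, an orphan nuclear receptor that is switched on within minutes of many stimuli, was at 10.5, 13.3, 63.9 and 38.0 CPM, with a ratio of 6.06 (5.06 to 7.31). Of 16 clock genes 2 were at least 2-fold lower and the median log2 ratio was -0.38. Dbp, a clock output factor whose level swings over the day, was at 133, 81.6, 64.2 and 128 CPM, 2.07-fold lower than in sham (1.92 to 2.24), and Hlf, of the same family, was 2.08-fold lower (1.71 to 2.53). Neither stayed past 2-fold with each spot thinned to 5000 UMIs or with mitochondrial genes in the total, nor did Hlf in spots of 20000 to 30000 UMIs or Dbp, by a narrow margin, under median-of-ratios scaling. The hour of tissue collection is not given in the sources used here. Other stress lists held 1 such gene each. Hspa1a, the inducible HSP70 chaperone, was at 5.27, 4.33, 13.9 and 6.00 CPM, the only 1 of 17 heat shock genes at least 2-fold higher, and was inside 2-fold after thinning. Psat1, an enzyme of serine synthesis driven by ATF4, was at 2.95, 2.44, 8.15 and 3.99 CPM, the only 1 of 9 genes of that response. Of the 2 cell cycle genes compared, both of which were at least 2-fold lower, Stmn1, which takes microtubules apart, was at 51.4, 19.1, 24.2 and 39.6 CPM and Cenpf, a kinetochore protein, at 13.2, 8.19, 4.67 and 6.30 CPM. In spots of like depth Stmn1 was just inside 2-fold, with a ratio of 0.519. Tuba4a, an alpha-tubulin, was at 643, 527, 291 and 458 CPM, 2.21-fold lower than in sham (2.14 to 2.29), with no overlap of sectors. Cidea, a protein of lipid droplets, was at 35.4 CPM in sham and 93.9 CPM in TAC-4w, with a ratio of 2.65 (2.39 to 2.95) and no overlap of sectors. Chrna2, a subunit of nicotinic acetylcholine receptors, had 3 UMIs in sham and 107 in TAC-4w, a ratio of 24.3 (8.09 to 119.7).

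**Figure D4:**
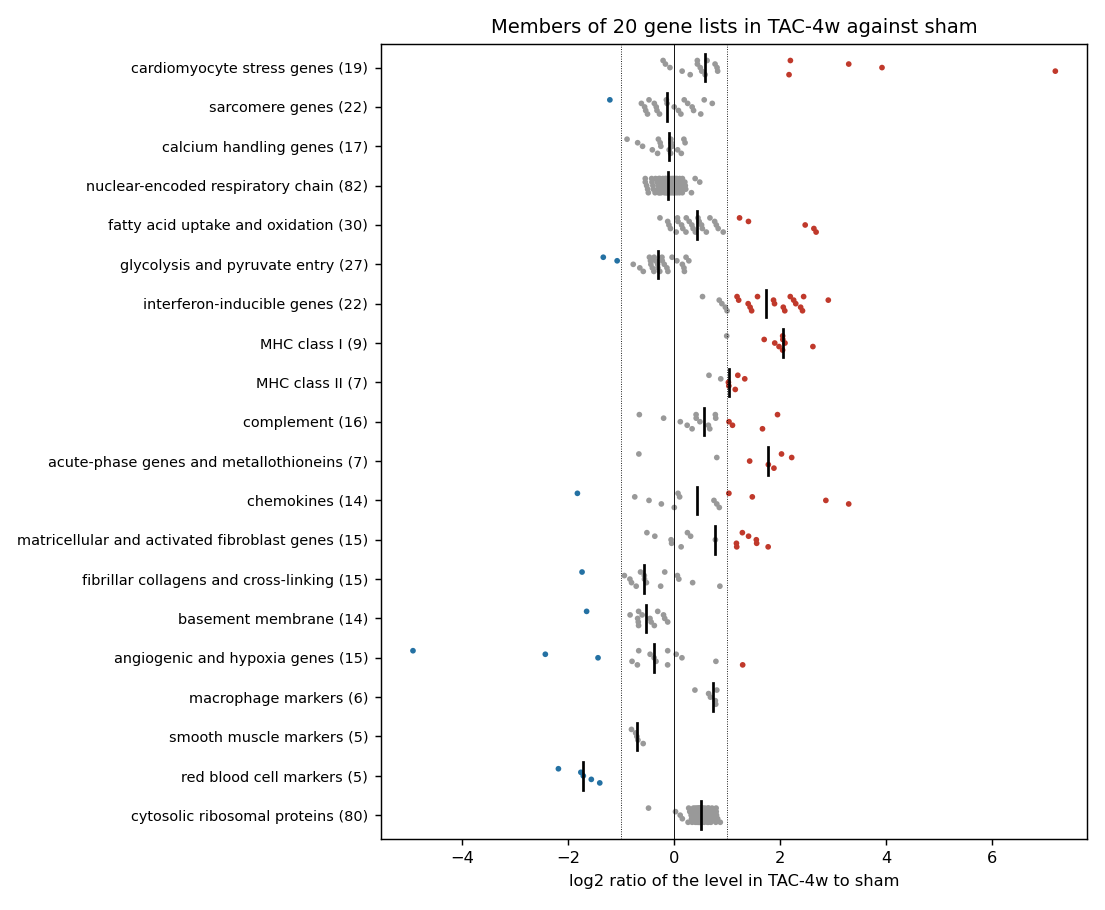
Log2 ratio of the level in TAC-4w to sham (x axis) for the compared members of 20 gene lists (y axis, with the number of members compared). Points are genes, red at or above 1 and blue at or below -1, and black bars are medians. The medians of MHC class I and of the interferon-inducible genes lie at 2.04 and 1.72, that of red blood cell markers at -1.72 and that of the respiratory chain at -0.12.

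Genes of fatty acid use were higher in the main. Of 30 compared 5 were at least 2-fold higher and none at least 2-fold lower, with 26 above sham, 29 with mitochondrial genes in the total, and a median log2 ratio of 0.42. Pdk4, a mitochondrial kinase that switches off pyruvate dehydrogenase, was at 161, 386, 894 and 369 CPM. Sham was the lowest of the 4 and TAC-4w the highest, with a ratio of 5.54 (5.29 to 5.81) and sectors of 708 to 1017 CPM against 122 to 182 CPM. Angptl4, a secreted inhibitor of lipoprotein lipase, was at 10.8, 31.6, 68.9 and 32.5 CPM with a ratio of 6.39 (5.35 to 7.69). Acot2, a mitochondrial acyl-CoA thioesterase, was at 141, 183, 371 and 124 CPM with a ratio of 2.64 (2.50 to 2.78). Ucp3, a mitochondrial carrier of the uncoupling family, was at 17.2, 31.7, 40.5 and 26.8 CPM with a ratio of 2.35 (2.02 to 2.75). Fabp3, the cytosolic fatty acid carrier of muscle, was the most abundant of the list in TAC-4w at 6399, 9143, 12143 and 8153 CPM, and its ratio of 1.90 (1.88 to 1.91) was inside 2-fold. Lpl, the lipase that frees fatty acids from lipoproteins, was at 6601, 5490.4, 7266 and 4838 CPM with a ratio of 1.10 (1.09 to 1.11). Scd4, a desaturase that makes monounsaturated fatty acids and was among the 15 highest genes, was at 5.35, 9.65, 53.7 and 3.84 CPM with a ratio of 10.0 (7.84 to 13.1).

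Glycolytic genes leaned the other way. Of 27 compared 2 were at least 2-fold lower and none at least 2-fold higher, 21 were below sham, 15 with mitochondrial genes in the total, and the median log2 ratio was -0.31, or -0.05 with that total. Eno3, the enolase of muscle, was at 1674, 1527, 662 and 1375 CPM, lowest in TAC-4w and 2.53-fold lower there than in sham (2.47 to 2.59). Hk2, the hexokinase of insulin-responsive muscle, was at 253, 179, 120.1 and 210.2 CPM, 2.11-fold lower (2.00 to 2.23), though inside 2-fold with mitochondrial genes in the total. For both genes the highest TAC-4w sector was under the lowest sham sector. Gapdh, which serves the same pathway, was at 3733, 4099, 3629 and 4079.9 CPM, with a ratio of 0.972 (0.961 to 0.984) that turned to above 1 with mitochondrial genes in the total. Ckb, the brain form of creatine kinase, was at 97.8, 69.0, 36.2 and 116 CPM, 2.70-fold lower (2.46 to 2.97), and was the only 1 of 8 genes of the creatine and energy shuttle past 2-fold.

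Contractile and mitochondrial genes stayed mostly inside 2-fold. Of 22 sarcomere genes Myh6 alone was at least 2-fold lower, with a median log2 ratio of -0.14. None of 17 calcium handling genes (median -0.10) and none of 82 nuclear-encoded genes of the respiratory chain (median -0.12) passed 2-fold. With mitochondrial genes in the total these 3 medians turned to 0.12, 0.16 and 0.14, so no direction can be given for them. Atp2a2, the calcium pump of the sarcoplasmic reticulum, was at 11187, 10629, 8995 and 8615 CPM and Pln, its inhibitor, at 4979, 5852, 5207 and 4478 CPM. Of 80 cytosolic ribosomal protein genes 79 were above sham and none past 2-fold, with a median log2 ratio of 0.50 that stayed between 0.50 and 0.76 over the settings tried. Lars2, the mitochondrial leucyl-tRNA synthetase, was at 845, 511, 427 and 676 CPM, lowest in TAC-4w and just inside 2-fold, with a ratio of 0.505 (0.491 to 0.520) over all spots and of 0.718 in spots of like depth. One sham sector reached 1836 CPM. The median log2 ratio of the 14 mitochondrial tRNA synthetases compared was -0.27.

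Structural collagens and matricellular genes of the activated fibroblast differed in direction. Of 15 genes of fibrillar collagens and their cross-linking 1 was at least 2-fold lower, none was at least 2-fold higher, and the median log2 ratio was -0.56. Col3a1, the chain of type III collagen, was at 181, 161, 54.3 and 479.9 CPM. TAC-4w was lowest and TAC-6w highest, and the TAC-4w level was 3.34-fold lower than that of sham (3.10 to 3.60). Col1a1, a chain of type I collagen, had the same order at 97.4, 70.5, 50.8 and 229.8 CPM, 1.92-fold lower (1.76 to 2.09). All 14 basement membrane genes were below sham, though 11 with mitochondrial genes in the total, and 1 of them was at least 2-fold lower, with a median of -0.53. Col15a1, a collagen at the basement membrane of muscle and capillaries, was at 81.7, 62.6, 26.0 and 179.6 CPM and 3.15-fold lower (2.82 to 3.51). Sparc, a collagen-binding protein, was at 482, 412, 301 and 996 CPM, and Col4a1, a chain of type IV collagen, at 405, 329.8, 312 and 788 CPM.

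Matricellular proteins signal in the matrix rather than build it. Of 15 matricellular and activated fibroblast genes compared 7 were at least 2-fold higher and none at least 2-fold lower. The median log2 ratio was 0.78, and it was 0.38 with each spot thinned to 5000 UMIs. In 2 of the 15 genes all TAC-4w sectors lay above all sham sectors. Against the same sham section the medians were -0.82 in TAC-2w and 1.55 in TAC-6w, beside -0.17 and 0.10 over all genes compared at those times. Ccn2, connective tissue growth factor, was at 77.7, 44.1, 265 and 126 CPM, highest in TAC-4w, with a ratio of 3.41 (3.19 to 3.66). Timp1, an inhibitor of metalloproteinases, was at 8.38, 2.99, 24.5 and 17.1 CPM with a ratio of 2.93 (2.36 to 3.65), and Comp, a pentameric matrix protein, at 2.79, 1.46, 8.21 and 11.4 CPM with a ratio of 2.94 (2.02 to 4.37). The sectors of Timp1 and of Comp overlapped between the sections, and 2 neighbouring sectors held most of the Comp signal of TAC-4w. Comp was inside 2-fold after thinning, and 5 of the 7 stayed past 2-fold in spots of like depth, while Cilp and Thbs4 did not. The other 4 were Thbs1 at 5.98 and 15.8 CPM in sham and TAC-4w, Ccn5 at 10.2 and 24.9 CPM, Cilp at 19.2 and 43.5 CPM and Thbs4 at 5.91 and 13.3 CPM. The 6 fibroblast markers, 2 of which are Col1a1 and Dcn, summed to 3395 CPM in sham and 3660 CPM in TAC-4w. Gsn was the most abundant of them, with sectors of 1433 to 2679 CPM in sham and 1582 to 2726 CPM in TAC-4w. Dcn, the proteoglycan decorin, was higher in TAC-4w, at 939 and 1274 CPM, while 4 of the 6 markers were below sham. The median log2 ratio of the 6 was -0.04, -0.16 in spots of like depth, and it turned to 0.22 with mitochondrial genes in the total.

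Both genes of the apelin pair, a signal between cells of the vessel wall, were lower in TAC-4w. Apln, the ligand, was at 13.2, 7.21, 0.435 and 16.8 CPM, from 166 UMIs in sham to 8 in TAC-4w, 30.5-fold lower (15.1 to 71.7). Aplnr, its receptor on endothelium, was at 20.8, 20.1, 3.86 and 61.0 CPM, 5.40-fold lower than in sham (4.14 to 7.12). TAC-6w had more of both than sham. Of 15 angiogenic and hypoxia genes compared these 2 and Egln3 were at least 2-fold lower, and Angpt1 was at least 2-fold higher. Egln3, a prolyl hydroxylase of the hypoxia-inducible factor, was at 50.5, 27.3, 18.6 and 48.3 CPM, and Angpt1, a ligand that steadies vessels, at 12.9, 14.3, 31.6 and 8.83 CPM. Angpt1 was inside 2-fold after thinning. Capillary endothelium markers were 0 of 6 past 2-fold and split, and they summed to 3105 CPM in sham and 3503 CPM in TAC-4w. Fabp4, a fatty acid carrier, at 1835, 1621, 2300.5 and 2961 CPM, and Ly6c1 were above sham. The other 4 were below it, with Cdh5, the cadherin of endothelial junctions, at 185, 114, 105 and 237 CPM and Kdr, the main VEGF receptor, at 139, 94.7, 87.6 and 189 CPM, and 1 of these 4 turned to above sham with mitochondrial genes in the total. Smooth muscle markers were 0 of 5 past 2-fold and all below sham, with a median log2 ratio of -0.70.

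Of 7 genes of retinoid metabolism compared 2 were at least 2-fold lower and none higher by that much. Cyp26b1, which degrades retinoic acid, was at 55.5, 11.0, 7.34 and 1.45 CPM, 7.57-fold lower in TAC-4w than in sham (6.29 to 9.17). Sham was the section that stood apart, since TAC-2w and TAC-6w were lower as well. Rarb, a retinoic acid receptor, was at 12.3, 8.52, 5.11 and 7.38 CPM, 2.41-fold lower (1.85 to 3.14) and inside 2-fold after thinning. Further genes among the 15 lowest were Rasl10a, a Ras-like GTPase, 7.02-fold lower (4.45 to 11.5), and Fscn1, which bundles actin, 3.56-fold lower (2.98 to 4.27). Cryba4, a crystallin, and Gm36827 had few counts, 112 and 148 UMIs in sham against 41 and 57 in TAC-4w. Markers of the mesothelium on the heart's surface were 2 of 3 at least 2-fold higher. The third, Wt1, a transcription factor of the epicardium, was below sham at a log2 ratio of -0.76, with 105 UMIs in sham and 91 in TAC-4w. Msln was at 4.95, 2.15, 10.8 and 9.47 CPM and Upk3b at 3.51, 1.53, 8.75 and 7.19 CPM, and 69.2% and 72.0% of their TAC-4w UMIs lay in edge spots, against 66.1% and 68.2% in sham. Without the edge spots the ratio of Msln was inside 2-fold.

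Red blood cell genes were lower, all 5 compared at least 2-fold lower, with a median log2 ratio of -1.72 over all spots and of -0.85 in spots of like depth. Hba-a2, an alpha globin, was at 5667, 4936, 1246 and 2928 CPM, 4.55-fold lower in TAC-4w than in sham (4.48 to 4.62). Hbb-bs, a beta globin, was at 9519.8, 11722, 3594 and 6621 CPM, 2.65-fold lower (2.62 to 2.67). The globin copies are close to each other in sequence, and reads may be split between them. Alas2, which starts haem synthesis in red cells, was at 76.0, 72.4, 23.2 and 44.0 CPM. In spots of 20000 to 30000 UMIs the ratio was 0.424 for Hba-a2, 0.706 for Hbb-bs and 0.535 for Alas2, so that of the 5 genes 1 stayed past 2-fold. Haemoglobin took 2.17% of counted UMIs in sham and 0.682% in TAC-4w, and leaving haemoglobin and ribosomal protein genes out of the total gave 262 genes at least 2-fold higher and 97 at least 2-fold lower.

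Set beside all 4 sections, 94 of the 9776 genes compared were at least 2-fold higher in TAC-4w than in each of the other 3. At least 2-fold lower than in each were 25. A like count was not made for the other sections. The batch of TAC-4w holds no other section, so these counts do not part time after surgery from batch. TAC-2w shares its batch with sham and was below it for Myh7 (41.5 and 86.9 CPM), Nppb (66.8 and 139.6 CPM), B2m (649 and 841 CPM) and Igtp (13.9 and 20.2 CPM). It was above sham for Pdk4 and Angptl4. TAC-6w, in a batch of its own, was above sham for all 6 of these genes, below TAC-4w for each of them, and above TAC-4w for Acta1. The 3 ratios to sham share the sham section and are no independent readings of it.

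**Figure D5:**
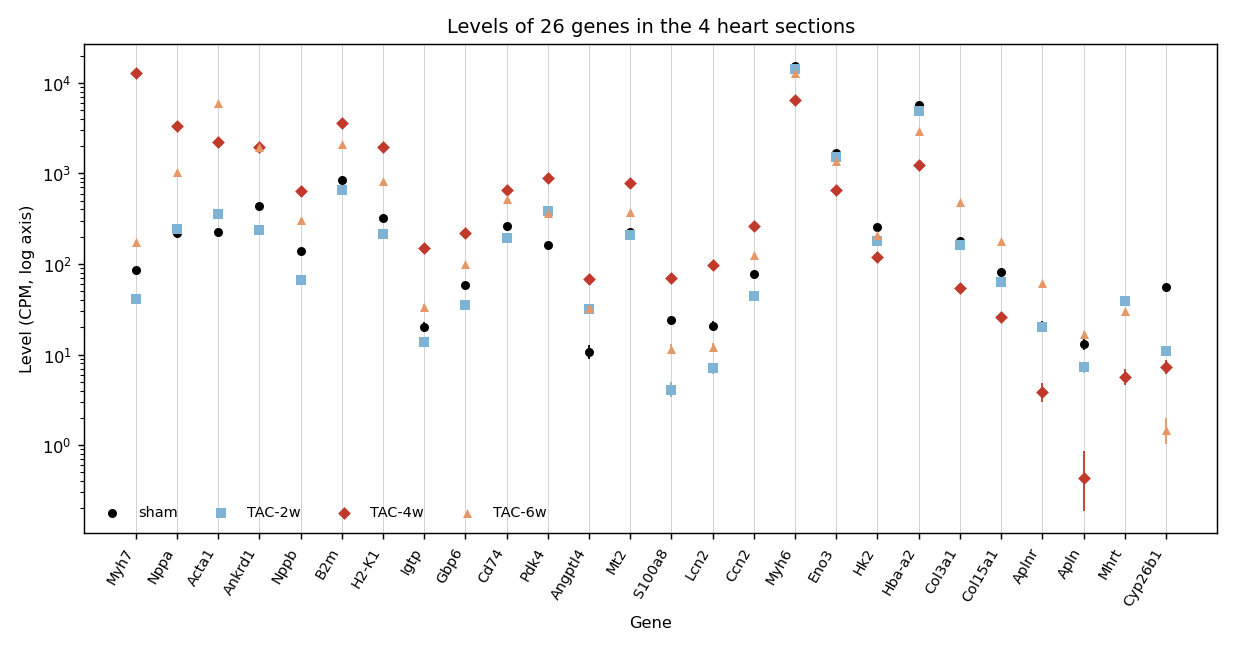
Levels of 26 genes in all 4 sections on a log axis in CPM, with exact Poisson 95% intervals of counting error as vertical lines, 1 section for each condition. TAC-4w is highest for Myh7, Nppa, Nppb, B2m, H2-K1, Igtp and Pdk4 and lowest for Myh6, Eno3, Hk2, Col3a1, Aplnr and Apln, and TAC-6w is highest for Acta1.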

How the data were processed

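Spatial gene expression was measured with Visium in 4 heart sections. The authors ran Space Ranger, for which the submitters' processing notes give version 1.3.1 and build mm10 and the file headers version 1.2.0, and deposited matrices of UMI counts per gene and spot, not normalized and limited to spots over tissue. Cell Ranger 7.0.0 is also in those notes. The single-cell libraries of the series were not used here.

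Counts were summed over the spots of a section and scaled to CPM. A gene was called at a ratio of at least 2 or at most 0.5, with counts under 3 set to 3. Levels have exact Poisson and ratios exact conditional binomial 95% intervals, which cover counting error only. No test between conditions was run, since each condition has 1 section. The ratios were computed again in spots of 20000 to 30000 UMIs, and the lowest and highest levels of 8 angular sectors were compared between the sections. The calculation of ratios and their intervals was tested on simulated counts, and the other steps were not. Alternatives were other totals, TMM (edgeR 4.0.16 in R 4.3.3) and median-of-ratios scaling, interior spots, spots thinned to 5000 UMIs, means over spots and other count minima. Python 3.11.15, numpy 2.4.6, scipy 1.17.1 and pandas 2.3.3 were used. Named were the 15 genes at each end of the ratio and, in each gene list, the 2 members highest in level and the 2 with the largest absolute log2 ratio, of which a few are not reported here. Comparison, gene lists and named genes were chosen with earlier results of these data known. Promoters were taken from RefSeq tables of GRCm38.p6.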

Additional observations from a re-analysis of the deposited data

Results flagged for a closer look

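In 11 genes the log2 ratio to sham was past 1 in one direction in TAC-4w and in the other direction at another time. Sought were genes named above with at least 100 UMIs in sham or in the section of that other time. Msln and Upk3b had fewer UMIs there and were not counted, though they too were past 2-fold in opposite directions in TAC-4w and TAC-2w. Not every named gene was looked at, and Cilp and Thbs4 were among those left out. Of all 252 genes at least 2-fold higher in TAC-4w, 40 were at least 2-fold lower than sham in TAC-2w and 8 in TAC-6w. Of the 101 genes at least 2-fold lower in TAC-4w, 0 were at least 2-fold higher in TAC-2w and 6 in TAC-6w. Over all genes compared at those times 0.792% were at least 2-fold lower in TAC-2w and 0.259% in TAC-6w. At least 2-fold higher were 0.156% and 1.92%. These shares ask for at least 100 UMIs in either section of the pair. The counts of 40, 8, 0 and 6 do not, so they may include genes with few UMIs in both. Each condition has 1 section, all ratios share the sham section, and the difference between times was not tested. Myh7 was at 7.19 in TAC-4w and -1.07 in TAC-2w, and Nppb at 2.19 and -1.06. Both TAC-2w values were only just past 1, and the median over all genes in TAC-2w was -0.17. Mitochondrially encoded genes took 51.5% of UMIs in sham and 43.4% in TAC-2w. With these genes in the total, Myh7 and Nppb would lie inside 2-fold in TAC-2w. Lcn2, C4b, Timp1, S100a8, S100a9 and Serpina3n also had sham levels above those of TAC-2w. The list of acute-phase genes and metallothioneins as a whole had a median log2 ratio of -0.12 in TAC-2w, where Mt1 was above sham. Lcn2 was at 2.22 in TAC-4w and -1.57 in TAC-2w, C4b at 1.66 and -1.72, and Timp1 at 1.55 and -1.49. S100a8, S100a9 and Serpina3n were below sham at both other times. S100a8 was at 1.53 in TAC-4w, -2.54 in TAC-2w and -1.05 in TAC-6w, S100a9 at 1.13, -2.54 and -1.18, and Serpina3n at 1.88, -2.01 and -1.15. Aplnr, Col3a1 and Col15a1 were below sham in TAC-4w and above it in TAC-6w, and TAC-4w and TAC-6w are of different batches. Aplnr was at -2.43 in TAC-4w and 1.55 in TAC-6w, Col3a1 at -1.74 and 1.40, and Col15a1 at -1.65 and 1.14.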

How the results depend on the processing

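The count minimum set how many genes were compared and so the counts. At 500 UMIs, with 4460 genes compared, 111 genes were at least 2-fold higher and 32 at least 2-fold lower, at 20 UMIs (12671 genes) 554 and 326, and at 1 UMI (18190 genes) 818 and 753, against 252 and 101 at 100 UMIs. With all genes in the total the counts were 428 and 52, and with each spot thinned to 5000 UMIs 164 genes were at least 2-fold lower. Under the scalings and choices of spots not named for a direction 251 to 309 genes were higher and 87 to 130 lower. None of the 353 genes changed sign under any choice of spots or with means over spots. Scalings shift all log2 ratios alike, by at most 0.26, so they could not change the sign of a gene past 2-fold. Of 952 log2 ratios under alternatives, taken for 119 genes of the text, 641 stayed within their counting interval and 311 did not. No called gene among the 119 turned. Some named genes were left out, among them Stmn1, Cilp and Thbs4, which fell inside 2-fold in spots of like depth. No paired analysis was possible because each condition has 1 section. Every ratio rests on 1 section per condition, and the counting intervals are wide for genes with few UMIs in sham, such as Iglc1, Chil3 and Chrna2.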
